A study of Mus musculus with 65 samples.

Results

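Glucose uptake and glycolysis were followed through 10 genes in single long-term hematopoietic stem cells of aged mice. The genes were the glucose transporter gene Slc2a3, the hexokinase genes Hk1 and Hk2, Gpi1, Aldoa, Tpi1, Gapdh, Eno2 and the lactate dehydrogenase genes Ldha and Ldhb. They were taken from a list of glycolysis genes by keeping those present among the 18036 rows of the deposited table, and each of the 10 was detected in at least 18 of the 65 cells. Of all rows, 6721 had at least 1 estimated count in some cell.

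The cells came from femora and tibiae of mice older than 20 months that were double heterozygous for SCL-tTA and H2B-GFP. In this reporter the stem cell leukemia gene's promoter drives a tetracycline transactivator that turns on a GFP-tagged histone, and once it is off each division dilutes the label. The 37 label-retaining cells were sorted as GFP positive and the 28 non-label-retaining cells as GFP negative. All were lineage-depleted LSK (Sca-1 and Kit positive) cells that were CD34-/low, Flk2-, CD48- and CD150+, and all spent a night at 3% O2 without growth factors before lysis. Repeats 1 to 4 gave 9, 9, 10 and 9 label-retaining cells and 8, 4, 6 and 10 non-label-retaining cells. The labels do not say how many mice a repeat holds, so the p-values below measure the spread between repeats.

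Glycolysis splits glucose into pyruvate in the cytosol and yields ATP without oxygen. Lactate dehydrogenase then turns pyruvate into lactate, which restores the NAD+ that the GAPDH step uses. Quiescent hematopoietic stem cells are known for a strong reliance on glycolysis and a low use of mitochondrial respiration, and the transcription factor HIF-1, which is stable at low oxygen, is known to induce many glycolysis genes.

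ACGTG is one form of the core motif at which HIF-1 binds DNA, and the E-box CACGTG of Myc-family and related factors overlaps it. Other forms of the core were not searched. Promoter windows of 250 bases before and 50 after a gene's start, from RefSeq on GRCm38.p6 (the mm10 assembly), were found for 9 of the 10 genes, 13 windows in all. Windows of Ldha, Hk2 and Ldhb are shown because all cells here were held at low oxygen and these genes span the range of matches to ACGTG. Capitals mark ACGTG on either strand (CACGT is its reverse complement).
Ldha, chr7:46845554-46845853, plus strand: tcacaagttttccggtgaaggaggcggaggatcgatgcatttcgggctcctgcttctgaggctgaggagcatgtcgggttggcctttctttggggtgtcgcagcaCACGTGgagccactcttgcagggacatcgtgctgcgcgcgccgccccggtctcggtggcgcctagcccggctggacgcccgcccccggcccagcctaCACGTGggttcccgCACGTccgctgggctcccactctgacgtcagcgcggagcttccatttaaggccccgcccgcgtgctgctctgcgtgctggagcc
Hk2, chr6:82774405-82774704, minus strand: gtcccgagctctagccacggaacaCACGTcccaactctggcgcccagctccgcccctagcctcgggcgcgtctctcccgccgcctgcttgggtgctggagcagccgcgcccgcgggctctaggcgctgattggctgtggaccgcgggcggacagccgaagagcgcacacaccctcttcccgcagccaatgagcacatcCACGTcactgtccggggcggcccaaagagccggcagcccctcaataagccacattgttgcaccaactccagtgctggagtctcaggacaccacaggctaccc
Ldhb, chr6:142507908-142508207, minus strand: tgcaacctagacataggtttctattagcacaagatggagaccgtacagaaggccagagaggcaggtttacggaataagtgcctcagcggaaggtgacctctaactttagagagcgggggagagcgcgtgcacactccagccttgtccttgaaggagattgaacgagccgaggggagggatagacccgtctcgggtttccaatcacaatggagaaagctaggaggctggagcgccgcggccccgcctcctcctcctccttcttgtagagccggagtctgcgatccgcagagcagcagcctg
The Ldha window shown held ACGTG at 3 places, and its CACGTG places read as a match on both strands. The Hk2 window held it at 2 places and the Ldhb window at none. The other Ldha window, chr7:46846832-46847131, held none, and Hk1 and Aldoa each also had a window without a match. ACGTG on either strand occurred in 19.6% of the 32851 windows of that table and at 3 or more places in 0.414% of them. Of the 13 windows, 6 held a match, in Hk1, Hk2, Aldoa, Gapdh and Ldha, and the 2 Aldoa windows with one overlap and share the same place. A match is a description of these letters and not a measured binding site.

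Depth and shared profiles bear on every value that follows. Totals over the genes of the table had a median of 264894 estimated counts in label-retaining cells (27954 to 20516069) and 118056 in non-label-retaining cells (86 to 661078), of which 4 lay under 10000. Median totals in repeats 1 and 2 were 1654517 and 697583 in label-retaining cells, against 65358 and 41004 in non-label-retaining cells, and in repeats 3 and 4 they were 201268 and 164961 against 271753 and 201757. Among the defining stem cell genes, Hlf was detected in 31 of 37 and 12 of 28 cells, Gata2 in 24 and 10, and Meis1 in 22 and 11, while Slamf1, which encodes the sorted antigen CD150, was at 0 in all 65 and so were Cd48 and Flt3. Erythroid markers, with 4 of 8 in the table and each seen in both groups, took 0 to 92.5% of a label-retaining cell's counts (median 0.0185%) and 0 to 7.93% of a non-label-retaining cell's (median 0.279%).

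Some libraries shared a profile. Of 2080 pairs of libraries, whose median Pearson r on log2(CPM + 10) was 0.290, 16 pairs reached 0.7, and they joined 19 libraries into 7 sets. The largest set joined 6 libraries, label-retaining cells 20 to 25 of repeat 3, where cells 20 and 21 had r = 0.984. In 1 set the groups met: label-retaining cell 3 and non-label-retaining cell 3, both of repeat 1, had r = 0.957, and the total of the non-label-retaining cell was 1.66% of that of the label-retaining cell. Over the 1335 genes with at least 1000 counts in label-retaining cell 3, the count in non-label-retaining cell 3 was a median of 1.54% of it (quartiles 1.29 and 1.77%), and none of those genes was at 0. The glycolysis genes lay on the same line, with Gpi1 at 1.43%, Tpi1 at 1.43%, Gapdh at 1.48%, Aldoa at 1.49%, Hk1 at 1.70% and Ldha at 1.93%. Slc2a3 (8.02%) and Eno2 (31.9%) lay above it, and Hk2 and Ldhb were at 0 in both cells. Shared material and alike cells cannot be told apart here. Several results that rest on non-label-retaining repeat 1, mostly mean levels, are therefore given with and without that cell. Detection shares by repeat, the p-values printed with them, correlations and co-detection counts include it.

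**Figure D1:**
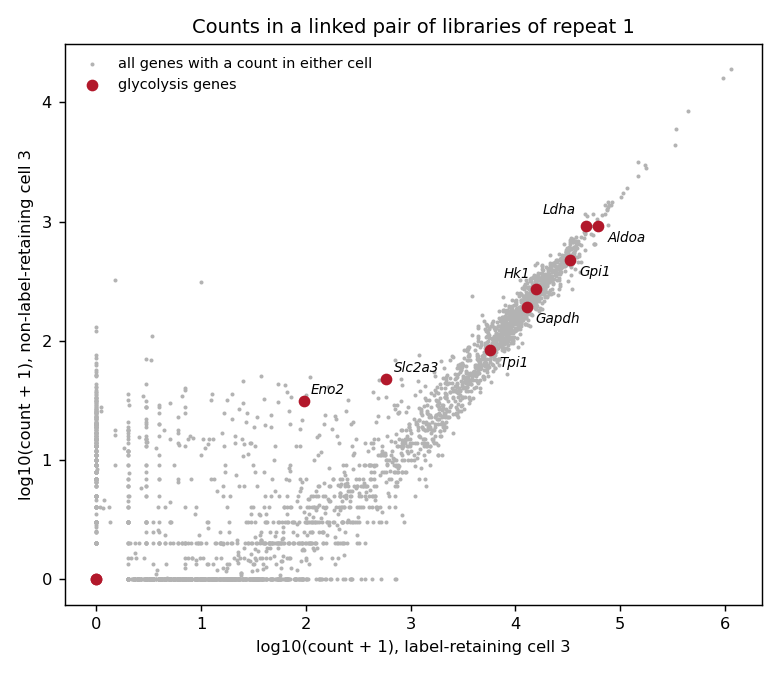
Estimated counts, as log10(count + 1), of each gene in label-retaining cell 3 (x axis) and non-label-retaining cell 3 (y axis), both of repeat 1, with the glycolysis genes in red. Hk1, Gpi1, Aldoa, Tpi1, Gapdh and Ldha lie along one band with the bulk of the highly counted genes, while Slc2a3 and Eno2 lie above it.

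Label-retaining cells showed more of the 10 genes per cell. They had 5.95 ± 1.55 of them with at least 1 estimated count and non-label-retaining cells had 4.10 ± 0.875 (mean ± SD over repeats, n = 4 each). By repeat the means were 7.89, 6, 5.8 and 4.11 in label-retaining cells, against 4.75, 4.75, 4 and 2.9 in non-label-retaining cells. The label-retaining mean was the higher in 4 of 4 repeats, although label-retaining repeat 4 lay below non-label-retaining repeats 1 and 2. It was the higher in 3 of 4 repeats after thinning and with 1 library of each linked set. Without non-label-retaining cell 3 the non-label-retaining mean was 3.98 ± 0.786. At least 5 of the genes were found in 27 of 37 label-retaining cells and 9 of 28 non-label-retaining cells, and all 10 in 3 and 0. A single cell of each group had none.

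That difference ran beside one over all genes. All genes with at least 1 count numbered 1829 ± 444 per label-retaining cell and 1012 ± 275 per non-label-retaining cell, a ratio of 1.81, against a ratio of 1.45 for the 10 genes. With every cell of at least 10000 counts thinned to 10000 counts, which kept 61 cells and left out 4 non-label-retaining ones, the ratio was 1.62 for the 10 genes (3.97 and 2.45 per cell) and 1.51 for all genes. At a minimum of 10 counts it was 3.11 for the 10 genes and 3.17 for all. Across the 65 cells, the number of the 10 genes and the number of all genes detected had a Spearman correlation of 0.867 as a description; both rest on the same library. The ratios of the 10 genes thus lay below, above and close to those of all genes, depending on the minimum and the depth, and their difference was not tested.

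**Figure D2:**
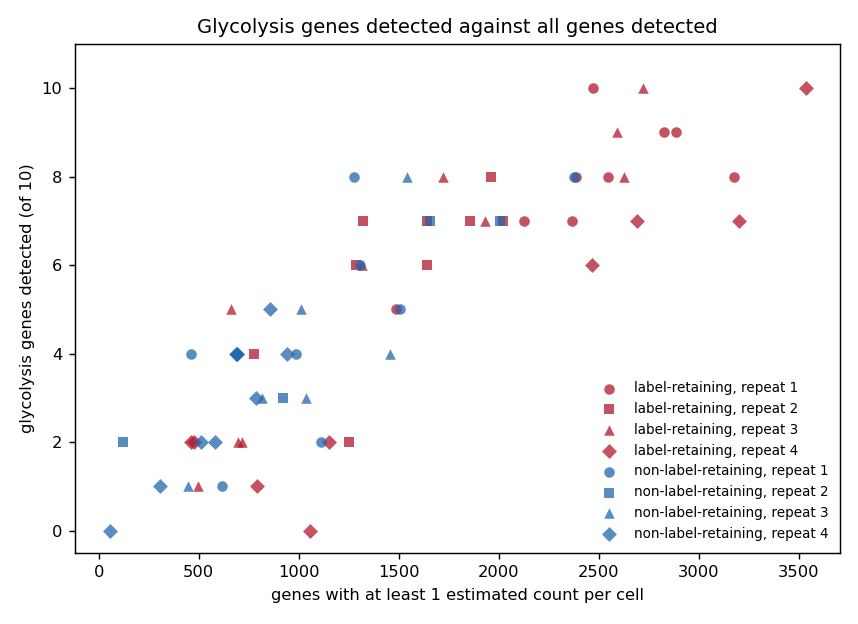
Number of the 10 glycolysis genes detected in each of the 65 cells (y axis) against the number of all genes detected in that cell (x axis), with colour for the group and shape for the repeat. Cells of both groups lie along one rising band, and the 3 cells with all 10 genes are label-retaining.

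Glucose enters the cell through carriers, and Slc2a3 encodes the high-affinity transporter GLUT3. It was detected in 31 of 37 label-retaining cells and 21 of 28 non-label-retaining cells. By repeat, 88.9, 100, 90 and 55.6% of label-retaining cells had it, against 37.5, 100, 100 and 80% of non-label-retaining cells. The groups overlapped fully, with label-retaining cells higher in 1 of 4 repeats, and after thinning the mean shares were 46.2 and 65.4%. Its mean level was 244, 22.8, 817 and 308 CPM (counts per 1000000 of the cell's total in the table) in label-retaining repeats 1 to 4, against 129, 1189.9, 867 and 269 CPM in non-label-retaining repeats. In repeat 2 all 9 label-retaining cells had the gene, yet at a low level, and its non-label-retaining counterpart rests on 4 cells with a summed count of 45.1. Most of that 1189.9 CPM came from 1 count in cell 9, a library of 238 counts, and the repeat had 188 CPM without it. Slc2a3 had whole counts in 34.6% of its nonzero values (within 0.0001), the lowest share of the 10 genes, and fractions arise where a read is shared among genes, so its values are uncertain to that extent.

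Hexokinases trap glucose as glucose 6-phosphate, and Hk1 is the broadly expressed form. It was detected in 18 of 37 label-retaining cells and 5 of 28 non-label-retaining cells. By repeat the shares were 66.7, 44.4, 40 and 44.4% of label-retaining cells, against 37.5, 50, 0 and 0% of non-label-retaining cells. Non-label-retaining repeats 3 and 4 had no Hk1 count in their 16 cells, and only repeat 2 went the other way. Those repeats had median totals no lower than the label-retaining ones but fewer detected genes, at 1052 and 611 per cell on average, against 1548 and 1760 in label-retaining repeats 3 and 4, and the part of this in the zeros was not tested. The difference in mean share was 27.0 points (exact permutation p = 0.171, adjusted p = 0.478). Mean levels were 167, 24.4, 47.7 and 79.2 CPM in label-retaining repeats, against 108, 15.8, 0 and 0 CPM in non-label-retaining ones. Label-retaining cells were higher in 4 of 4 repeats, and in non-label-retaining repeat 1 a single library, cell 3, held 99.3% of the Hk1 counts; without it that repeat had 10.02 CPM.

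Hk2 encodes the inducible hexokinase. It was detected in 14 of 37 label-retaining cells and 6 of 28 non-label-retaining cells, and those 6 all came from repeat 4. The shares by repeat were 33.3, 0, 70 and 44.4% of label-retaining cells, against 0, 0, 0 and 60% of non-label-retaining cells. Its levels were 48.8, 0, 5725 and 152 CPM in label-retaining repeats, against 0, 0, 0 and 995 CPM in non-label-retaining ones. Single cells set these levels: 1 cell with 5164 counts, at 53391 CPM, held 79.7% of the Hk2 counts of label-retaining repeat 3, and 1 cell with 1572 counts held 90.9% of those of non-label-retaining repeat 4. With 1 library kept of each linked set, label-retaining repeat 3 had Hk2 in 2 of 5 cells and a level of 129 CPM. Hk1 and Hk2 were found together in 10 label-retaining cells and in 0 of the 28 non-label-retaining cells. Independent detection at the same rates would give 6.81 and 1.07. Label-retaining cells 20 to 23, of 1 linked set, were among the 10, and no non-label-retaining repeat held both genes.

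Gpi1, the isomerase that makes fructose 6-phosphate, was detected in 23 of 37 label-retaining cells and 15 of 28 non-label-retaining cells. Its level was 685, 0.761, 589 and 173 CPM in label-retaining repeats, against 251, 12.2, 19.7 and 22.5 CPM in non-label-retaining repeats. Label-retaining repeat 2 was the lowest of all 8, and label-retaining cells were higher in the other 3 repeats. In non-label-retaining repeat 1, cell 3 held 97.1% of the Gpi1 counts, and the repeat had 87.7 CPM without it.

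Aldoa encodes aldolase A, which splits fructose bisphosphate into trioses. It was found in 31 of 37 label-retaining cells and 21 of 28 non-label-retaining cells, so its presence differed little: the mean shares by repeat were 84.2 ± 18.3% and 80.8 ± 28.3% (SD, n = 4 each). At least 10 counts were present in 27 label-retaining cells and 7 non-label-retaining cells, and at least 100 in 21 and 1. Among cells with the gene the level ran from 6.24 through a median of 1041 to 6042 CPM in label-retaining cells, and from 2.10 through 73.1 to 4197 CPM in non-label-retaining cells. The group medians thus stood apart where the ranges did not.

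By repeat, Aldoa averaged 1994, 1925, 904 and 647 CPM in label-retaining cells, against 1063, 1412, 10.8 and 16.5 CPM in non-label-retaining cells. Label-retaining cells were higher in 4 of 4 repeats, and the gap was widest in repeats 3 and 4 as a ratio, though not as a difference in CPM. Non-label-retaining repeat 1 lay above label-retaining repeats 3 and 4, so the groups overlapped. The 1412 CPM of non-label-retaining repeat 2 rests on cell 9, with 1 Aldoa count among 238 counts (4197 CPM, the top of that group's range), and the repeat had 484 CPM without it. After thinning, Aldoa was expected in 99.99, 91.9, 60.0 and 47.7% of label-retaining cells, against 74.5, 84.0, 9.62 and 13.2% of non-label-retaining cells. The exact permutation test gave p = 0.257 (adjusted p = 0.814). Without non-label-retaining cell 3, the level in that group's repeat 1 was 827 CPM.

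Tpi1, the triose phosphate isomerase, was detected in 21 of 37 label-retaining cells and 8 of 28 non-label-retaining cells. The shares by repeat were 100, 77.8, 40 and 11.1% of label-retaining cells, against 50, 25, 33.3 and 10% of non-label-retaining cells. The label-retaining share was the higher in 4 of 4 repeats, by little in repeats 3 and 4. Mean levels were 236, 210.4, 11.1 and 31.0 CPM in label-retaining repeats, against 101, 8.87, 10.5 and 7.20 CPM in non-label-retaining repeats (81.4 CPM in repeat 1 without cell 3). All 29 cells with Tpi1 also had Aldoa.

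Gapdh encodes the enzyme that oxidises glyceraldehyde 3-phosphate and is widely used as a reference gene. It was detected in 28 of 37 label-retaining cells and 11 of 28 non-label-retaining cells. By repeat the shares were 100, 88.9, 70 and 44.4% of label-retaining cells, against 50, 50, 16.7 and 40% of non-label-retaining cells. The difference of 36.7 points was the widest of the 10 genes and was present in 4 of 4 repeats (exact permutation p = 0.0857, adjusted p = 0.389), with label-retaining repeat 4 inside the non-label-retaining range. After thinning the mean shares were 56.5 ± 23.6% and 33.8 ± 22.2%, with label-retaining cells higher in 3 of 4 repeats.

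The level of Gapdh was less one-sided than its detection. It averaged 707, 392, 187 and 176 CPM in label-retaining repeats, against 173, 127, 15.3 and 480 CPM in non-label-retaining repeats. Cell 3 held 95.0% of the Gapdh counts of non-label-retaining repeat 1, which had 117 CPM without it. The high value of non-label-retaining repeat 4 came from 1 cell, which held 98.2% of that repeat's Gapdh counts. Among cells with the gene the medians were 284 and 340.4 CPM. Only 46.3% of its nonzero values were whole. A search of RefSeq by gene name gave 4 near copies of Gapdh, 2 with rows in the table, so some of its reads may be shared with those copies. The same search gave 5 near copies of Aldoa and 7 of Tpi1. Copies under unrelated names were not searched for, so these numbers and the counts below are minimums. Over all cells, the copies with rows held 15.0 counts for Gapdh, 19 for Aldoa and 0 for Tpi1.

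Eno2, the enolase form known from neurons, was detected in 13 of 37 label-retaining cells and 5 of 28 non-label-retaining cells. Label-retaining repeat 3 had it in 6 of 10 cells, all of 1 linked set. With 1 library kept of each linked set, that repeat had it in 1 of 5 cells. The level of Eno2 was 110, 7.62, 274 and 13.0 CPM in label-retaining repeats, against 118, 9.16, 5.11 and 0 CPM in non-label-retaining repeats. The groups overlapped, and label-retaining cells were higher in 2 of 4 repeats. In non-label-retaining repeat 1, cell 2 gave 2 Eno2 counts among 2938, and without it the repeat had 37.9 CPM and label-retaining cells were higher in 3 of 4 repeats. Slc2a3, Eno2, Tpi1 and Gapdh lie within 2.44 megabases of one another on chromosome 6 (Slc2a3 at chr6:122727809-122802363, Eno2 at chr6:124760053-124769673, Tpi1 at chr6:124810586-124814158 and Gapdh at chr6:125161852-125166467). Of the other genes, Hk2 (chr6:82725025-82774454) and Ldhb (chr6:142490249-142507957) lie farther off on that chromosome, Gpi1 (chr7:34201327-34230336), Ldha (chr7:46842274-46855627) and Aldoa (chr7:126795234-126800994) on chromosome 7, and Hk1 (chr10:62268855-62379920) on chromosome 10, all in mm10 positions from RefSeq.

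Ldha encodes the lactate dehydrogenase subunit that favours making lactate from pyruvate. It was found in 27 of 37 label-retaining cells and 12 of 28 non-label-retaining cells, and with at least 10 counts in 19 and 3. By repeat the shares were 100, 88.9, 60 and 44.4% of label-retaining cells, against 75, 25, 50 and 20% of non-label-retaining cells. The label-retaining share was the higher in 4 of 4 repeats, by 30.8 points on average (exact permutation p = 0.143, adjusted p = 0.444). The difference was as large after thinning, with 50.4 ± 34.8% and 18.5 ± 29.2% (exact permutation p = 0.257, adjusted p = 0.814).

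In level, Ldha averaged 1772, 1856, 28.2 and 118 CPM in label-retaining repeats, against 551, 4.43, 4.58 and 1.30 CPM in non-label-retaining repeats. Label-retaining cells were higher in 4 of 4 repeats, and both groups had their highest or nearly highest level in repeat 1. Cell 3 held 95.6% of the Ldha counts of non-label-retaining repeat 1, but the repeat still had 249 CPM without it, above label-retaining repeats 3 and 4. Among cells with the gene the median was 307 CPM in label-retaining cells and 16.5 CPM in non-label-retaining cells.

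Ldhb, the subunit that favours the return of lactate to pyruvate, was the less often detected of the pair, in 14 of 37 label-retaining cells and 6 of 28 non-label-retaining cells. By repeat the shares were 66.7, 55.6, 10 and 22.2% of label-retaining cells, against 25, 75, 16.7 and 0% of non-label-retaining cells. Its mean level was 237, 159, 0.336 and 23.2 CPM in label-retaining repeats, against 87.1, 40.7, 3.83 and 0 CPM in non-label-retaining repeats. Label-retaining cells were higher in level in 3 of 4 repeats, and 1 cell held 99.4% of the counts of label-retaining repeat 2. The 87.1 CPM of non-label-retaining repeat 1 came almost wholly from 2 counts in cell 2, a library of 2938 counts, and the repeat had 2.32 CPM without it. No non-label-retaining cell reached 10 counts of Ldhb, against 7 label-retaining cells. Of the label-retaining cells with Ldhb, 13 of 14 also had Ldha, and of the non-label-retaining ones 3 of 6.

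**Figure D3:**
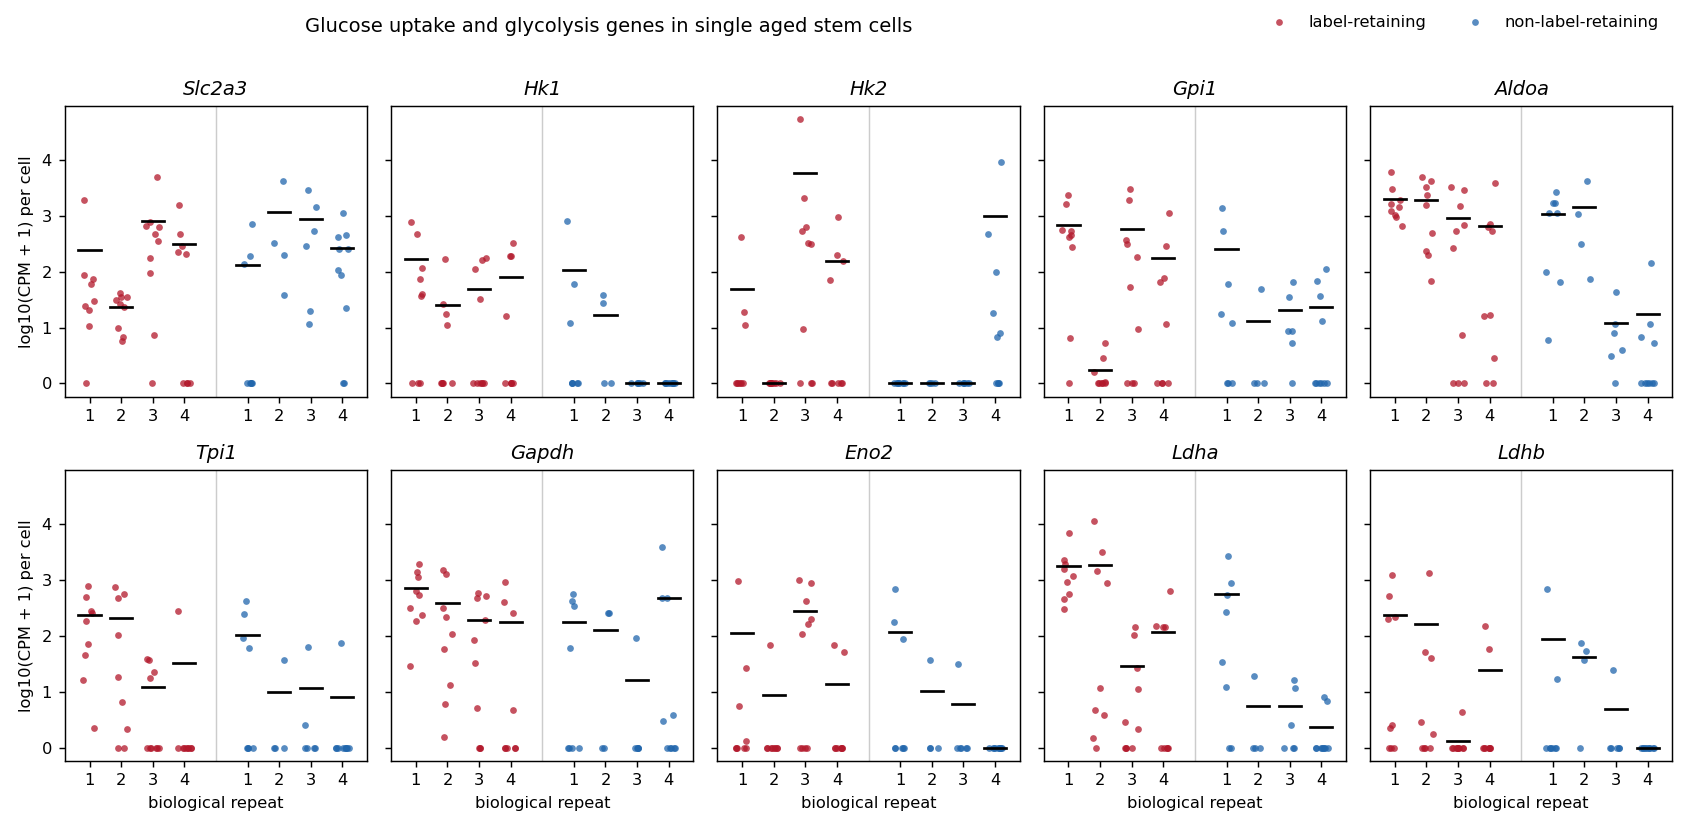
Level of each of the 10 genes in each cell, as log10(CPM + 1), with label-retaining cells (red) left and non-label-retaining cells (blue) right in each panel, by repeat; the black line is the mean CPM of the repeat. Aldoa and Ldha sit higher in label-retaining repeats 3 and 4 than in non-label-retaining repeats 3 and 4, while Slc2a3 shows no such gap and Hk2 is carried by a few cells.

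In detection, none of the 10 genes separated the groups, so that each label-retaining repeat lay above each non-label-retaining one, against 7.84% of the 3379 genes detected in at least 10 cells. Tpi1, Gapdh and Ldha were higher in 4 of 4 repeats, 3 of 10, where 29.5% of those genes were. After thinning, 0 of the 10 genes separated the groups upward and 0 downward, against 4.68% and 0.118% of genes, and 3 of 10, Aldoa, Tpi1 and Ldha, were higher in 4 of 4 repeats, against 20.5%. The median difference of the 10 genes was 18.3 points, against 19.7 over all 3379 genes, and 17.9 points after thinning, against 6.67. The 3379 genes were not matched to the 10 in count level, so these medians do not show a lead particular to the 10 genes. In mean level, Hk1, Aldoa, Tpi1 and Ldha led in label-retaining cells in 4 of 4 repeats, against 23.1% of the same genes, and 0 of the 10 trailed in all 4, against 0.474%; with 1 library of each linked set these were Hk1, Gpi1, Aldoa, Eno2 and Ldha, against 22.3%. With cells under 10000 counts left out they were Hk1, Aldoa, Tpi1 and Ldha, against 23.3%. The exact permutation test of 4 repeats against 4 cannot go below p = 0.0286, and no gene passed an adjusted threshold of 0.05 (0 of 3379, smallest adjusted p 0.364, with 265 at an unadjusted p under 0.05).

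**Figure D4:**
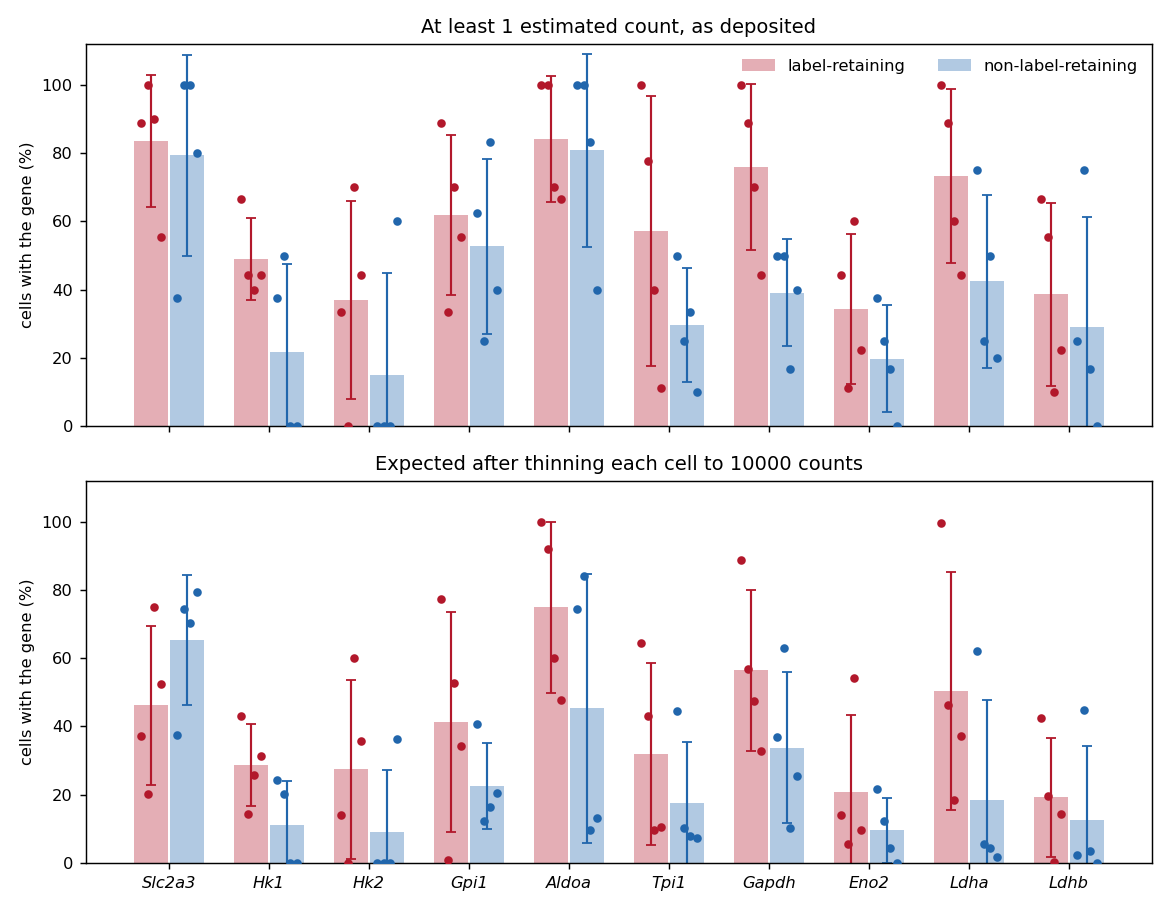
Percent of cells with each gene, as deposited (top) and expected after thinning each cell to 10000 counts (bottom), with label-retaining cells left (red) and non-label-retaining cells right (blue); bars are means of 4 repeats, error bars SD and points single repeats. Thinning opens the gap of Aldoa, keeps that of Ldha and turns the small one of Slc2a3 round.

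In the test of levels, the 8 summed profiles were compared with edgeR's quasi-likelihood test, adjusted by Benjamini-Hochberg over 2767 genes. None of the 10 genes passed the adjusted threshold of 0.05, and none of all genes did (0.0%, smallest adjusted p 0.325). At an unadjusted p under 0.05, 6.47% of genes were higher and 4.45% lower in label-retaining cells (179 and 123), and 0 of the 10 genes was among them. With the repeats as a block these counts were 214 and 9. DESeq2, which gave an adjusted p for 2081 genes, called 6 genes higher and 5 lower at an adjusted p under 0.05. None of the 10 was called, but DESeq2 gave no p-value for Hk2 and Eno2. For Slc2a3 its log2 fold change was -3.59 (DESeq2 p = 0.0267, adjusted p = 0.241). The scale itself was tilted: the median log2 fold change of all genes was 1.14 (65.2% of genes above 0), and that of the 10 genes was 1.30.

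Of the 10 fold changes, 7 were positive and 3 negative, each with a standard error too wide for the adjusted threshold. Eno2 stood at 3.36 ± 2.34 on the log2 scale (SE; edgeR adjusted p = 0.535), Ldhb at 2.62 ± 2.33 (0.598), Aldoa at 2.32 ± 2.34 (0.638), Tpi1 at 1.79 ± 2.17 (0.680), Ldha at 1.43 ± 2.13 (0.736), Hk1 at 1.17 ± 2.08 (0.770) and Gpi1 at 1.02 ± 2.04 (0.796). Slc2a3 stood at -3.20 ± 2.44 (0.563), Hk2 at -1.35 ± 2.27 (0.755) and Gapdh at -1.10 ± 2.20 (0.797). The signs of Gapdh and Hk2 turned with scaling by total counts, to 1.19 and 1.35, and the TMM factors, 0.29 and 0.22 for non-label-retaining repeats 3 and 4 against 1.44 to 2.06 for the other sums, are what differs between the fits. Without non-label-retaining cell 3 the estimates were 4.51 for Hk1 and 3.80 for Ldha, still short of the threshold.

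**Figure D5:**
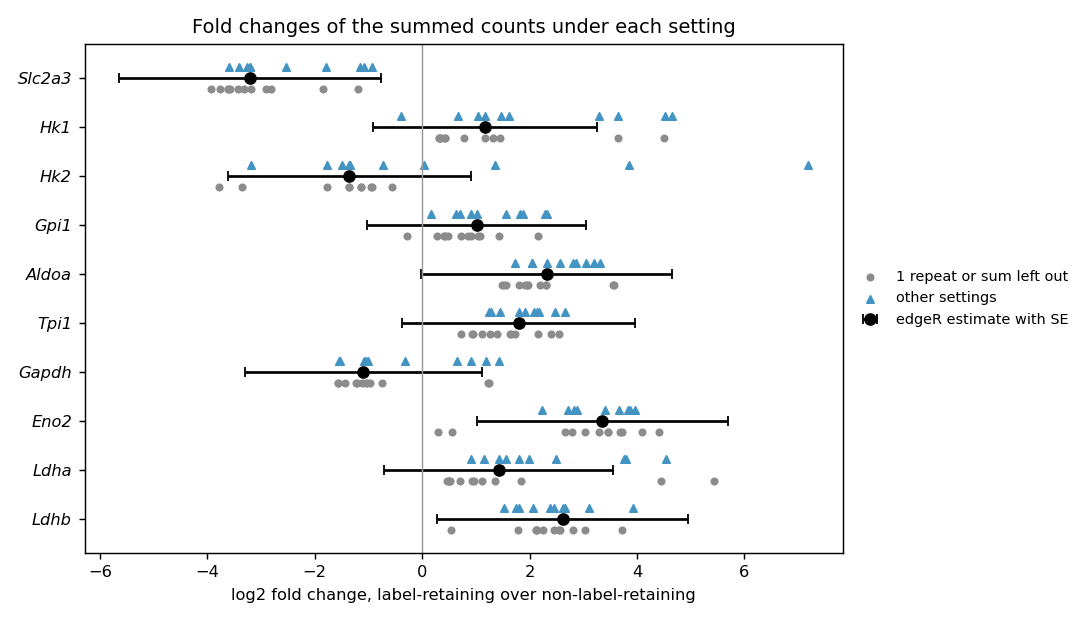
Log2 fold change of each gene's summed counts, label-retaining over non-label-retaining, with the edgeR estimate and its SE (black), the estimates with 1 repeat or 1 sum left out (grey) and those of the other settings (blue). Aldoa, Tpi1, Eno2, Ldha and Ldhb stay above 0 and Slc2a3 below 0 in each setting shown, while Hk1, Hk2, Gpi1 and Gapdh lie on both sides.

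Together the 10 genes took 0.620, 0.460, 0.858 and 0.172% of the counts of label-retaining cells in repeats 1 to 4, against 0.258, 0.282, 0.0937 and 0.179% of those of non-label-retaining cells. The label-retaining share was the higher in 3 of 4 repeats, and in repeat 4 the values were close. The 0.282% rests on non-label-retaining cell 9, with 2 counts of these genes among 238, and without cells under 10000 counts the non-label-retaining shares were 0.246, 0.0962, 0.0937 and 0.218%. Most of the lead of label-retaining repeat 3 came with Hk2: with 1 library of each linked set the shares were 0.695, 0.495, 0.269 and 0.172%, against 0.172, 0.320, 0.111 and 0.194%. The direction in each repeat was then as before. With haemoglobin counts left out of the totals the mean shares were 0.531 and 0.205%, against 0.528 and 0.203% with them.

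Among the 10 genes, the closest pairs from cell to cell were of the triose enzymes. Over the 61 cells with at least 10000 counts, the Spearman correlation of CPM was 0.711 between Aldoa and Tpi1, 0.698 between Aldoa and Gapdh and 0.653 between Tpi1 and Gapdh. Ldha correlated with Aldoa at 0.563 and with Tpi1 at 0.562, but with Ldhb at 0.237. Slc2a3 was at -0.06 with Aldoa and -0.12 with Ldha, but at 0.329 with Hk2 and 0.245 with Eno2. Hk2 was at 0.0456 with Aldoa, but at 0.455 with Eno2 and 0.394 with Gpi1. These are descriptions, since levels within a cell share its library, its depth and its linked sets.

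The pairs found together most often were of often detected genes, while other pairs lay above or below the count for independent detection. The pair found together most often was Slc2a3 and Aldoa, in 28 of 37 label-retaining cells and 16 of 28 non-label-retaining cells, where independent detection at the same rates would give 26.0 and 15.8. Aldoa and Gapdh were found together in 26 and 9 (23.5 and 8.25 if independent), Aldoa and Ldha in 25 and 11 (22.6 and 9), and Tpi1 and Gapdh in 21 and 6 (15.9 and 3.14). All 21 label-retaining cells with Tpi1 had Gapdh. Hk2 and Gpi1 were found together in 14 and 2 cells (8.70 and 3.21 if independent). For Hk2 and Eno2 the counts were 10 and 0 (4.92 and 1.07 if independent). Label-retaining cells 20 to 25, of 1 linked set, were among the cells with each of these Hk2 pairs. Label-retaining cells with both Aldoa and Gapdh had a median total of 619680 counts, against 160334 in those without both, whereas in non-label-retaining cells the totals were 27784 and 165707. Deeper cells thus held the pair in label-retaining cells, and shallower ones in non-label-retaining cells.

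The genes whose share of a cell's counts followed the summed share of the 10 genes most closely were Gpx4, Eif4a1, Erh, Krcc1 and Sf3b2, with Spearman correlations of 0.647, 0.630, 0.629, 0.628 and 0.624 over 61 cells and 1854 genes. Gpx4 reduces lipid peroxides, Eif4a1 is a translation initiation helicase and Sf3b2 a splicing factor. They were found in more label-retaining cells, Gpx4 in 32 of 37 and 18 of 28, and Eif4a1 in 28 and 8. Of the 3379 genes at large, 3152 had a higher mean detection share in label-retaining cells, so this direction is not particular to them. They were picked for their likeness in the same 61 cells, with linked libraries included.

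The rest of the pathway was sparsely covered by the table. Pgk1, Pgam1, Eno1, Pkm and the carrier gene Slc2a1 were listed but had no row matched to their symbols. Their absence therefore says nothing about these cells. Of 16 other glycolysis genes listed, 9 were in it and 3 were detected in at least 10 cells: the phosphofructokinase genes Pfkl (8 label-retaining and 4 non-label-retaining cells) and Pfkp (9 and 5), and Bpgm (23 and 14), which makes 2,3-bisphosphoglycerate. Among carriers, 5 of 12 were in the table and only Mpc2, a subunit of the mitochondrial pyruvate carrier, passed, in 18 and 6 cells (exact permutation p = 0.114, adjusted p = 0.444). None of these genes separated the groups.

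Regulators of the flux through glycolysis were listed as well. Of 13 in the table, 6 were detected in at least 10 cells. Of these, 5 had a higher mean share in label-retaining cells, where 3152 of the 3379 genes at large did. Pfkfb2, a bifunctional enzyme that sets the activator of phosphofructokinase, was detected in 17 of 37 and 3 of 28 cells (exact permutation p = 0.0857, adjusted p = 0.389), and Egln2, an oxygen-sensing prolyl hydroxylase, in 15 and 4. Pdk4, which inhibits pyruvate dehydrogenase, was found in 27 and 13, Epas1, which encodes HIF-2 alpha, in 12 and 7, and Vhl, which targets HIF for destruction, in 8 and 2. Hif1a, in 15 and 10 cells, was the exception, with a mean share difference of -0.0694 points.

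All 3 pyruvate dehydrogenase genes in the table had a higher mean share in label-retaining cells. Pdha1, the catalytic subunit, was detected in 13 of 37 label-retaining cells and 2 of 28 non-label-retaining ones (exact permutation p = 0.0571, adjusted p = 0.378), Pdhb in 20 and 13, and Dld in 11 and 2. After thinning, Pdha1 was expected in 19.3 and 0.618% of cells (exact permutation p = 0.0286, the smallest this design allows; adjusted p = 0.596), as 4.68% of all genes separated upward. The 3 pentose phosphate genes, Rpia (14 and 5), Rpe (15 and 6) and Taldo1 (23 and 12), had higher shares as well. Across these 5 lists, 15 of 16 tested genes had a higher share in label-retaining cells, while 3152 of the 3379 genes at large did, and 0 of the 16 separated the groups as deposited. After thinning, Bpgm (30.2 and 43.6%), Hif1a (27.4 and 33.3%) and Rpe (19.06 and 19.29%) had the lower mean share in label-retaining cells.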

How the data were processed

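RNA-seq was measured in 65 single cells. Per the labels' protocols, cDNA came from the SMART-Seq v4 kit, which marks neither strand nor molecule, and libraries from Nextera XT. The submitters' processing notes name mm10 and DESeq; no source used here gives the aligner, counter or annotation. The deposited table holds what the authors call normalized values, but they behave as unscaled estimated counts (expected counts): totals differ between cells by orders of magnitude and many values are whole. They were used as such and rounded after summing. Counts of other genes with shared reads can enter a gene's fractions. Of 18036 identifiers, 16216 matched a RefSeq symbol on GRCm38.p6; unmatched rows held 0.130% of counts.

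Detection means at least 1 estimated count. Counts were summed per repeat and group and tested with edgeR 4.0.16 (quasi-likelihood, TMM, robust, R 4.3.3; genes detected in 10 or more cells whose mean count per cell, averaged over the 8 sums, reached 10); shares used a two-sided exact permutation test over repeats. DESeq2 1.42.0 and limma 3.58.1 (pseudocount 1) served as alternatives, as did a thinning to 10000 counts and leaving out libraries. Scripts were tested on simulated data. The groups share repeat numbers, and deviations of same-numbered sums correlated at 0.553, 0.290, 0.170 and 0.160. The first value includes the linked cells 3 of both groups and was not computed without them, so it does not establish a pairing. The permutation test treated the repeats as unpaired. Sign flips of the 4 same-numbered differences in share cannot go below p = 0.125, the value for Tpi1, Gapdh and Ldha. Genes and lists were chosen with earlier results of these data known; named genes were the 10 genes, listed pathway genes found in at least 10 cells and the 5 most alike genes found in at least 20 cells.

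The settings that keep 1 library of each linked set, leave out non-label-retaining cell 3 or leave haemoglobin out of the totals were chosen after seeing the data. Totals cover the genes of the table, so intervals of full library depth are not given.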

Additional observations from a re-analysis of the deposited data

Results flagged for a closer look

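Each group's 4 repeats were examined for a highest or lowest value far from the others, by Dixon's criterion. Of 44 groups of values, 9 met it. The criterion's rate of about 1 in 20 holds for independent, normally distributed values. These values include zeros and share cells, so the count of 9 cannot be read as an excess.

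In label-retaining cells, the share with Hk1 was 66.7% in repeat 1 and 40 to 44.4% in the others. Hk2 averaged 5725 CPM in label-retaining repeat 3 and 0 to 152 CPM in the others. In non-label-retaining cells, Hk2 was found in 60% of the cells of repeat 4 and averaged 995 CPM there, and it was at 0 in the other repeats.

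The other 5 values were means of non-label-retaining repeat 1: 108 CPM for Hk1 (0 to 15.8 in the others), 251 CPM for Gpi1 (12.2 to 22.5), 101 CPM for Tpi1 (7.20 to 10.5), 118 CPM for Eno2 (0 to 9.16) and 551 CPM for Ldha (1.30 to 4.58). Without non-label-retaining cell 3 that repeat had 10.02 CPM for Hk1, 87.7 for Gpi1, 81.4 for Tpi1, 123 for Eno2 and 249 for Ldha. Without cell 2 of that repeat, a library of 2938 counts that held 2 of Eno2, Eno2 stood at 37.9 CPM.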

How the results depend on the processing

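Across the settings, 205 alternative fold changes and 198 differences in detection kept direction and side of the threshold, and 12 of each turned; the number of glycolysis genes per cell (20) and their summed share of counts (17) kept theirs throughout. No gene at all was called except by DESeq2 (6 higher, 5 lower). DESeq2 gave no p-value for Hk2 and Eno2, and their fold changes in that setting were counted as not called. Fold changes turned sign for Hk1 without the deepest cell of each repeat and group (-0.39), for Gapdh with total counts (1.19), no filter (0.65) and limma on rescaled cells (1.43), and for Hk2 under the same settings (1.35, 0.042 and 3.85). With the repeat as a block they were 0.90 for Gapdh and 7.19 for Hk2, and no call changed. Leaving out 1 repeat or sum gave -0.29 to 2.16 for Gpi1 (negative without label-retaining repeat 1) and -1.57 to 1.24 for Gapdh (positive without repeat 4 or non-label-retaining repeat 4). Detection differences turned for Slc2a3 after thinning (-19.2 points), thinning with 1 library of each linked set (-21.1) and without cells under 10000 counts (-2.10). Leaving out 1 repeat gave -11.5 to 13.8 points for Slc2a3 (negative without repeat 1, label-retaining repeat 2 or non-label-retaining repeat 1), -10.3 to 9.72 for Aldoa (negative without repeat 4, label-retaining repeat 1 or 2, or non-label-retaining repeat 4) and -1.30 to 24.7 for Ldhb (negative without repeat 1 or non-label-retaining repeat 4). The cause was not tested. Unadjusted counts under leave-one-out ran from 83 to 461 higher and 54 to 145 lower. No value could be given for Hk2 without repeat 4 (1 group at 0) or for Eno2 under the stricter filter. The 4 cells under 10000 counts, all non-label-retaining, give CPM values in which 1 or 2 counts weigh heavily.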
